A study of Mus musculus with 24 samples.

Results

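H19, Igf2 and the IGF pathway were followed here through 10 genes, chosen by symbol: the imprinted pair H19 and Igf2, the receptors Igf1r, Igf2r and Insr, the adaptors Irs1 and Irs2, and the RNA-binding proteins Igf2bp1, Igf2bp2 and Igf2bp3. All 10 were found in both deposited tables, among 19134 genes that the tables share. The study sequenced poly(A) RNA of E14 cells, a mouse embryonic stem cell line, kept in serum with leukaemia inhibitory factor on gelatin. Cells were wild type (WT) or belonged to lines labelled as knockouts, Smad2_KO1 and Smad2_KO2, named for Smad2, a transcription factor of the Nodal and activin pathway. Each genotype was grown in control medium or with the mTOR inhibitor INK128 at 200 nM for 12 h, which gives the paused state, so that 24 libraries form 6 groups of 4. The labels do not say how the knockout was made, whether each line is 1 clone, or whether replicates are separate cultures, so p-values measure the spread between these samples, which may be technical.

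IGF2 is a growth factor of the embryo that signals through the IGF1 receptor and the insulin receptor. IRS proteins carry that signal to PI3K, AKT and mTOR, the kinase that INK128 blocks, whereas IGF2R takes IGF2 to the lysosome for breakdown. Igf2 and the long non-coding RNA H19 are neighbours that share enhancers and are imprinted: H19 is transcribed from the maternal and Igf2 from the paternal chromosome, under a control region that CTCF binds when it is unmethylated. H19 also carries the microRNA miR-675 in its transcript. The IGF2BP proteins bind and stabilise Igf2 and many other mRNAs of fetal cells, and are classic targets of let-7 microRNAs, whose maturation LIN28 proteins block.

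H19 lies at chr7:142575529-142578143 on the minus strand of GRCm38 (the same sequence as mm10, the build in the submitters' processing notes) and is annotated as a lincRNA in GENCODE M21. Igf2 lies at chr7:142650766-142666816 on the same strand. Igf1r is on chromosome 7 as well, far from the pair, and the other genes are on chromosomes 17 (Igf2r), 8 (Insr and Irs2), 1 (Irs1), 11 (Igf2bp1), 16 (Igf2bp2) and 6 (Igf2bp3). The microRNAs tied to these genes are shown as mature sequences from RefSeq (GRCm38.p6), 5′ to 3′, with the seed, bases 2 to 8, in capitals. They show which letters were searched in the mRNAs. The microRNAs themselves were not measured.
mmu-miR-675-5p: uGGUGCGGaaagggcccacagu
mmu-miR-675-3p: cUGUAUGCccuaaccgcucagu
mmu-let-7a-5p: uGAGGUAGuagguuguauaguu
mmu-let-7g-5p: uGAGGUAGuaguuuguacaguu

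The seed of let-7a and let-7g is the same, and its match in an mRNA is CTACCTC. This match occurred in the 3′ UTR of 7 of the 9 protein-coding genes, read from the longest GENCODE M21 transcript on the sense strand. It was held by 10.0% of 15313 protein-coding genes measured in both conditions, but long 3′ UTRs hold it more often. Igf2bp1 stood out with 4 matches in a 3′ UTR of 6337 bases. Of 454 genes whose 3′ UTR was within 20% of that length, 34.4% had a match and 0.220% had at least 4. Igf1r had 2 matches, and Igf2r, Insr, Irs2, Igf2bp2 and Igf2bp3 had 1 each. For Igf2bp2 and Igf2bp3, 12.2% and 13.3% of genes with a similar 3′ UTR length had a match. The same share was 38.5% for Igf1r, 25.1% for Insr, 14.2% for Irs2 and 10.4% for Igf2r. No match was found in the 3′ UTR of Igf2 or Irs1, or in H19. A match of letters is a description and not a measured site. The windows below print the Igf2bp matches, which all 3 paralogs carry, in capitals.
Igf2bp1 bases 3756 to 3762: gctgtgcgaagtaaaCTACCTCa
Igf2bp1 bases 6177 to 6183: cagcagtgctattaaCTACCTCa
Igf2bp1 bases 6771 to 6777: gtataaatggatgaaCTACCTCa
Igf2bp1 bases 7394 to 7400: acttttggttttaatCTACCTCt
Igf2bp2 bases 3428 to 3434: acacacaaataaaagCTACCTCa
Igf2bp3 bases 2774 to 2780: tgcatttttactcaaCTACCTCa

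The match to the miR-675-3p seed, GCATACA, was found in the 3′ UTR of Igf1r, 2 times, and of Insr, 1 time, and in 7.56% of all protein-coding genes. These 3′ UTRs are long, at 7267 and 4747 bases, and that share is not matched for length. The match to the miR-675-5p seed, CCGCACC, was in none of the 3′ UTRs of the 9 genes and in 2.14% of all. The Igf1r matches are shown because H19 is the host of miR-675 and Igf1r is the gene here with more than 1 match.
Igf1r bases 4647 to 4653: gctcctcatcaccccGCATACAc
Igf1r bases 5406 to 5412: gaccgtgaaacatttGCATACAc

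The data are 2 results tables, for control and paused cells, each giving per gene a mean normalized read count over libraries, a log2 change, its standard error (SE) and an adjusted p. No value of a single library was analysed, so the depth and spread of the libraries are unknown, the 2 knockout lines cannot be separated, and no change has a replicate check. Changes are read as knockout over wild type since the Smad2 transcript was lower, by -0.35 (SE 0.07) in the authors' deposited control table and -0.63 (SE 0.06) in the paused one. The transcript remained at 78.6% and 64.6% of the wild-type level, so it checks the labels only weakly, and the protein was not measured. If the ratio were the other way round, every direction here would turn, and each share of the wild-type level would be a share of the knockout level. A gene is called where its deposited adjusted p is under 0.05, which held for 41.4% of genes in control cells (19.5% higher, 21.9% lower) and 42.6% in paused cells (20.5% higher, 22.0% lower). With summed counts made equal in both genotypes, 4763 control calls were higher and 3105 lower, against 3858 and 4331 as deposited; in paused cells 4731 and 3484, against 4102 and 4402.

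Against these shares, 7 of the 10 genes were called in control cells, 4 higher and 3 lower, and 9 in paused cells, 4 higher and 5 lower. Abundant genes were called more often in general. Once scarce genes were left out by the 5 ppm minimum given below, the shares rose to 51.6% in control and 53.0% in paused cells. Of the chosen genes, 6 of 9 and 9 of 10 were then called. The 10 genes were chosen with these results known, so the counts and adjusted p-values describe the deposited tests and support nothing about the choice. H19 and Igf2 were higher in the knockout, Igf1r, Irs1 and Irs2 were lower, and Igf2bp2 was higher, each in both conditions. These 6 genes were called in the same direction in both conditions, as were 30.3% of all shared genes. Igf2r was called in opposite directions, as were 0.162% of genes. Insr (lower) and Igf2bp3 (higher) were called in paused cells alone, and Igf2bp1 in neither. With the statistic divided by its middle spread, an alternative given below, only H19 was called in each condition. The median change of the 10 genes was 0.01 in control and -0.02 in paused cells, against medians of 8.47e-04 and -0.0016 over all genes.

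**Figure D1:**
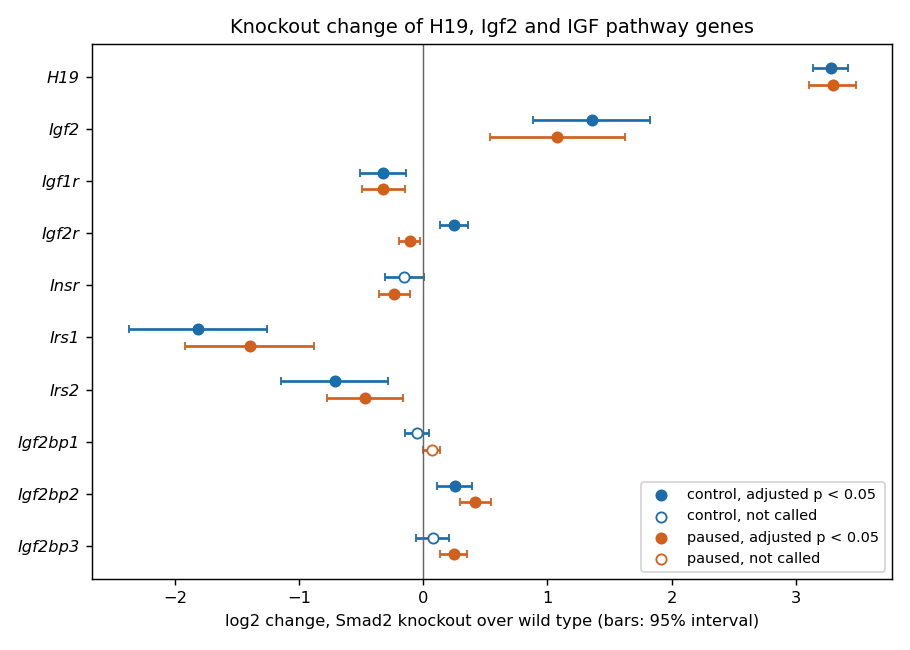
Log2 change of each gene, Smad2 knockout over wild type, in control (blue) and paused cells (orange), from the authors' deposited tables; bars are 95% intervals and filled points have an adjusted p under 0.05. H19 stands apart near 3.3 in both conditions, Irs1 lies lowest, and the Igf2r points fall on opposite sides of 0.

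H19 had the change of largest statistic among rising genes in each condition. It was higher by 3.28 (SE 0.07) in the authors' deposited control table, where its mean was 14947 normalized counts. The fold was 9.72 (95% interval 8.83 to 10.7). For paused cells the change in the authors' deposited table was 3.30 (SE 0.10) at a mean of 17817 counts, a fold of 9.83 (8.61 to 11.2). The change over its SE was 46.4 in control and 34.0 in paused cells. The next rising gene in paused cells reached 26.5 in the authors' deposited table. The statistic was not compared with the falls. Among rises, by size alone, H19 ranked 14 in control and 22 in paused cells, and only 1 gene above 5 ppm of all summed means rose further in each. The changes in the conditions differed by 0.02 (SE 0.12, 95% interval -0.22 to 0.25), so any dependence on pausing beyond about 0.25 lay outside the interval.

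Levels of H19 per genotype can be worked out from mean and change if the libraries in the mean are known, which the tables do not state. If all 4 wild-type and 8 knockout libraries of a condition were averaged, and wild type is the lower genotype, the control mean corresponds to 2194 counts in wild type and 21323 in the knockout, and the paused mean to 2588 and 25432. If 4 libraries of each were averaged, the lower genotype stood at 2789 and 3292 counts and the higher at 27105 and 32343.

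Igf2 rose together with its neighbour, less steeply and with far less certainty. It was higher by 1.36 (SE 0.24, adjusted p 1.69e-07) in the authors' deposited control table, at a mean of 4411 counts, or 2.56-fold (95% interval 1.85 to 3.54). In the authors' deposited paused table it was higher by 1.08 (SE 0.28, adjusted p 4.82e-04) at a mean of 5125, or 2.11-fold (1.45 to 3.08). With the statistic divided by its middle spread, Igf2 was called in neither condition (adjusted p 0.489 in control and 0.774 in paused cells). The difference between conditions, -0.28 (SE 0.37), did not pass (adjusted p 0.836). Igf2os, an antisense transcript that overlaps Igf2 over 7124 bases, rose as well, by 1.42 (SE 0.21) and 1.40 (SE 0.32) in the authors' deposited control and paused tables. The kit keeps the strand, but whether the counting used it is not stated, so reads of Igf2 and Igf2os may not be separate.

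Several genes near H19 were higher too. Within 500 kb of the H19 start 17 further genes were measured in control cells, of which 11 were called higher and 1 lower, with a median change of 0.88. In paused cells 8 of 16 were higher and 1 lower (median 1.00). Within 1000 kb 12 of 28 genes were higher and 2 lower in control cells (median 0.28), and of 31 genes under INK128 likewise 12 were higher and 2 lower (median 0.67). Over all genes 19.5% were called higher in control and 20.5% in paused cells. Of the risers within 500 kb in control cells, only Ctsd and Ascl2 had means above the abundance minimum of 230 counts. Above that minimum 2049 control genes were called higher and 3520 lower, against 3858 and 4331 over all genes. The windows were chosen after values were seen and carry no test. Nearest on the side away from Igf2, Mrpl23, a mitochondrial ribosomal protein gene 45.5 kb off, was not called, at 0.16 (SE 0.08) and 0.09 (SE 0.05) in the authors' deposited tables. Beyond it Tnnt3, a troponin gene of skeletal muscle 79.3 kb off, rose by 1.51 (SE 0.12) in control and 1.18 (SE 0.23) in paused cells, per the authors' deposited tables. Lsp1, farther out at 117 kb, was not called, at 0.20 (SE 0.19) and 0.27 (SE 0.19) in the authors' deposited tables.

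Past Igf2, the placental transcription factor gene Ascl2, 391 kb from H19, rose by 1.35 (SE 0.12) and 1.01 (SE 0.13) in the authors' deposited tables. Th, which codes for tyrosine hydroxylase, rose from low counts by 0.88 (SE 0.22) in control and 1.54 (SE 0.20) in paused cells, per the authors' deposited tables. Tspan32, a tetraspanin gene 427 kb off, rose by 1.12 (SE 0.11) and 1.01 (SE 0.08) in the authors' deposited tables. The next tetraspanin gene, Cd81, at a mean of 5915 counts, was not called in control cells (0.06, SE 0.07) and fell by 0.21 (SE 0.05) in paused cells, per the authors' deposited tables. No neighbour reached the change of H19 in either condition.

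**Figure D2:**
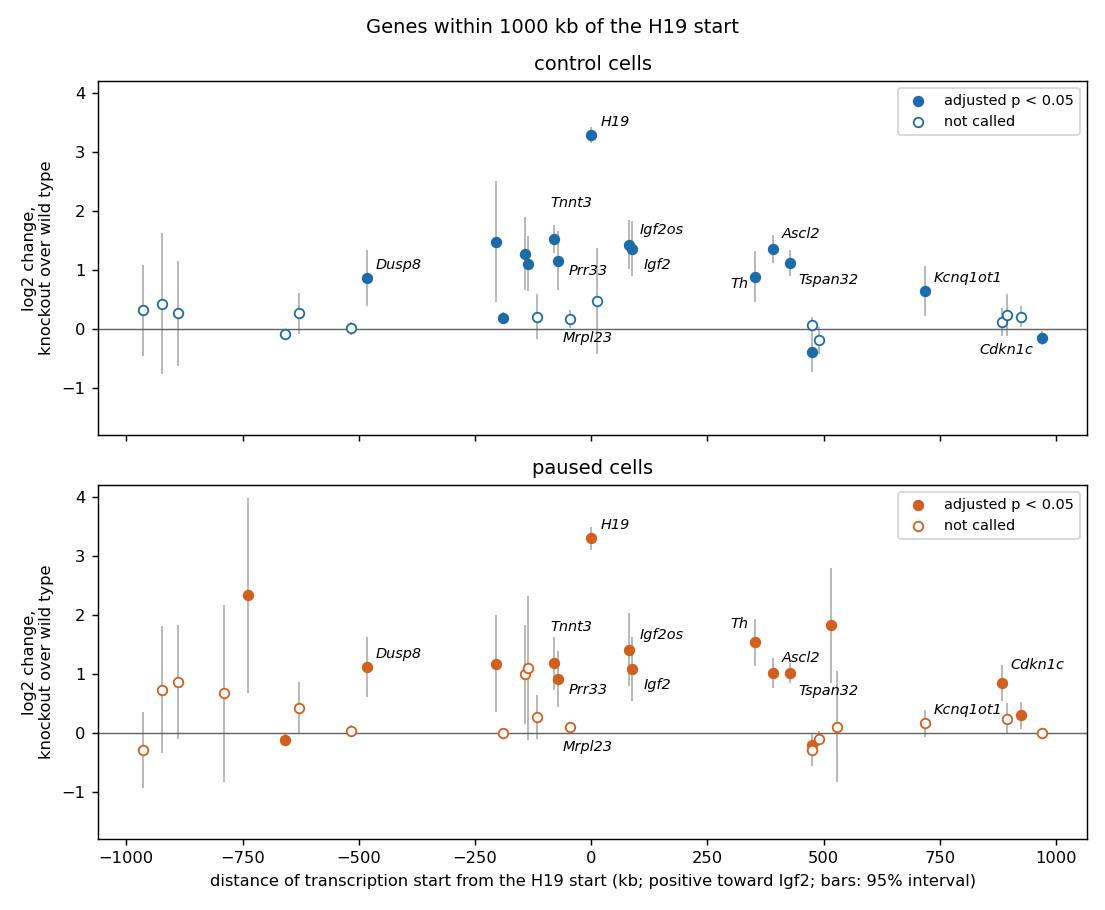
Log2 change (knockout over wild type, 95% intervals) of every measured gene whose start lies within 1000 kb of the H19 start, against distance in kb, for control and paused cells. Called genes near 1 to 1.5 surround H19 out to Tspan32, 427 kb away on the Igf2 side, with uncalled genes such as Mrpl23 between them.

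Factors that act at imprinted control regions were listed for comparison. Ctcf, which binds the H19 control region, was level at 0.0013 (SE 0.03) in control and -8.19e-04 (SE 0.02) in paused cells, per the authors' deposited tables. Its germline paralog Ctcfl rose by 1.38 (SE 0.10) and 1.32 (SE 0.09) in the authors' deposited tables. Zfp57, a zinc finger protein that guards methylated imprints, rose by 0.24 (SE 0.08) and 0.30 (SE 0.06), and Uhrf1, which recruits the maintenance methyltransferase, by 0.24 (SE 0.05) and 0.30 (SE 0.05) in the authors' deposited tables. Dppa3, which protects imprints in the early embryo, fell by 0.50 (SE 0.13) and 0.62 (SE 0.14) in the authors' deposited tables. Of the 9 listed factors, 3 were higher and 2 lower in control cells, against 4 and 2 in paused cells. Methylation was not measured.

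The receptors changed little, and not alike. Igf1r, the main signalling receptor for IGF2, fell by 0.32 (SE 0.10, adjusted p 0.00293, mean 1339) in the authors' deposited control table and by 0.32 (SE 0.09, adjusted p 9.94e-04, mean 2197) in the paused one, to 79.9% and 80.1% of the wild-type level (wild type over knockout, 1.25 in both). Its difference between conditions was 0.0030 (SE 0.13, interval -0.25 to 0.26). Insr, the insulin receptor, stood at -0.15 (SE 0.08, adjusted p 0.122, mean 468) in control cells and fell by 0.23 (SE 0.06, adjusted p 0.00101, mean 987) in paused cells, per the authors' deposited tables. The change of Insr did not differ between conditions beyond its error (-0.08, SE 0.10, adjusted p 0.825).

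Igf2r, the clearance receptor, was the only gene of the 10 whose difference between conditions was called. It rose by 0.25 (SE 0.06, adjusted p 8.24e-05, mean 4769) in control cells of the authors' deposited table, to 119% of the wild-type level. In the authors' deposited paused table it fell by 0.11 (SE 0.04, adjusted p 0.0329, mean 11186), to 92.8%. As wild type over knockout, the Igf2r ratios were 0.842 in control and 1.08 in paused cells. The change in paused minus control cells was -0.36 (SE 0.07, adjusted p 4.63e-04 over all shared genes by a two-sided normal test), a difference that was called for 1.44% of genes. Tested against a difference of at most 1.2-fold, the Igf2r difference was not called. Over all genes 137 differences were higher and 138 lower in paused cells, against 106 and 189 with equal summed counts. The fall in paused cells was lost when the changes were recentred, at -0.07 (adjusted p 0.175) with equal summed counts. The overlapping antisense RNA Airn, which silences the paternal Igf2r copy, had a mean of only 5.39 counts in the authors' deposited paused table and was not called there (0.59, SE 0.65).

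The adaptors Irs1 and Irs2 were lower in both conditions. Irs1 had the steepest fall of the 10 genes, by 1.81 (SE 0.29, adjusted p 3.54e-09) in control cells of the authors' deposited table, at a low mean of 102 counts, to 28.5% of the wild-type level (95% interval of the fold 0.193 to 0.419), or 3.51 as wild type over knockout. In paused cells it fell by 1.40 (SE 0.27, adjusted p 1.15e-06) at a mean of 276 in the authors' deposited table, to 37.9%, or 2.64 as wild type over knockout. Irs2 fell by 0.71 (SE 0.22, adjusted p 0.00444, mean 1092) and 0.47 (SE 0.16, adjusted p 0.00833, mean 2602) in the authors' deposited tables for control and paused cells, to 61.0% and 72.2%. As wild type over knockout, the Irs2 ratios were 1.64 and 1.39. Neither adaptor was called in either condition with the statistic divided by its middle spread. Against a null of at most 1.2-fold, Irs1 remained called in both conditions and Irs2 in neither. The differences between conditions, 0.42 (SE 0.39, adjusted p 0.730) for Irs1 and 0.24 (SE 0.27, adjusted p 0.791) for Irs2, were not called. Irs3 was higher by 0.67 (SE 0.22) and 0.71 (SE 0.21) at low counts, and Irs4 was not called (-0.46 and -0.01), in the authors' deposited tables.

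Of the RNA-binding proteins, Igf2bp1 was by far the most abundant and did not pass the test. Its mean was 39578 counts in control and 39763 in paused cells, with changes of -0.05 (SE 0.05, adjusted p 0.447) and 0.07 (SE 0.03, adjusted p 0.0986) in the authors' deposited tables. The 95% intervals, -0.14 to 0.05 and 7.31e-04 to 0.14, leave room for changes of about 10%. After recentring to equal summed counts the control value was 0.0063 and the paused value, 0.10, was called. Igf2bp2 rose by 0.25 (SE 0.07, adjusted p 0.00222, mean 3944) and 0.42 (SE 0.06, adjusted p 1.38e-09, mean 4506), and Igf2bp3 stood at 0.08 (SE 0.07, adjusted p 0.376, mean 3031) and rose by 0.25 (SE 0.05, adjusted p 3.67e-05, mean 3515), in the authors' deposited control and paused tables. Igf2bp3 overlaps Malsu1 on the other strand over 1529 bases, and Malsu1 fell by 0.42 (SE 0.14) in control cells, but was uncalled at -0.06 (SE 0.07) under INK128, in the authors' deposited tables. All 3 paralogs had the higher value in paused cells, by 0.12 (SE 0.06), 0.17 (SE 0.10) and 0.17 (SE 0.09), and none of these differences passed (adjusted p 0.385, 0.482 and 0.394).

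Of 12 measured genes listed around LIN28 and let-7, 1 was higher, 6 were lower and 5 were not called in each condition. Lin28b, an inhibitor of let-7 maturation, fell by 1.00 (SE 0.07) in control and 0.65 (SE 0.06) in paused cells, per the authors' deposited tables, and its fall was smaller in paused cells by 0.35 (SE 0.09, adjusted p 0.0170). Its paralog Lin28a fell by 0.18 (SE 0.06) in control cells and was level in paused cells (0.01, SE 0.05) in the authors' deposited tables. The Lin28a difference, 0.19 (SE 0.08, adjusted p 0.237), was not called. Hmga1, a chromatin protein gene, fell by 0.50 (SE 0.06) and 0.61 (SE 0.05), while the let-7 target Hmga2 was not called (-0.10, SE 0.25, and 0.14, SE 0.21), in the authors' deposited tables. Drosha and Dicer1, the microRNA processing enzymes, fell by 0.32 (SE 0.04) and 0.21 (SE 0.05) in control cells of the authors' deposited table. In the authors' deposited paused table they fell by 0.17 (SE 0.04) and 0.14 (SE 0.03).

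The precision of the changes set the genes apart as much as their size. Among the 250 genes on either side in mean count, the SE of Igf2 was above 100% of neighbours in control and 99.8% in paused cells, 0.24 and 0.28 against medians of 0.05 and 0.04. Irs1 was at 99.0% and 97.8%, and Irs2 at 99.0% and 98.6%. H19, despite the size of its change, was at 81.0% in control and 99.0% in paused cells. Igf2bp1 (37.0% and 30.8%) and Igf2r (56.4% and 61.8%) had ordinary errors. The SE holds the spread of the libraries in the authors' fit, which was not analysed per library or per knockout line.

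**Figure D3:**
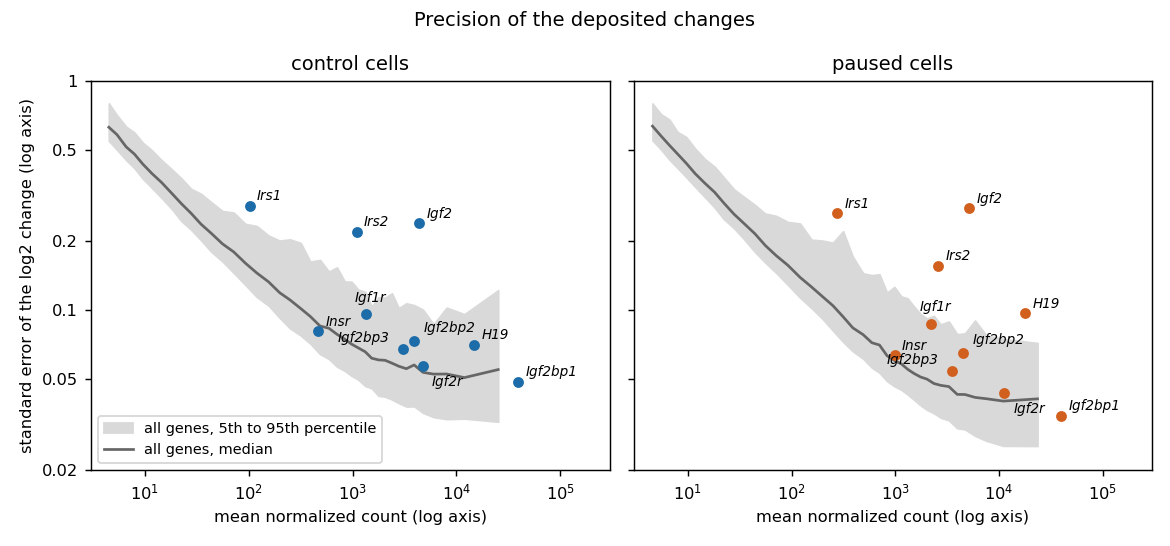
Standard error of the log2 change against mean normalized count (both axes logarithmic) for the 10 genes, over the median (line) and 5th to 95th percentile (grey) of all genes in 40 bins of mean count. Igf2, Irs1 and Irs2 lie above the grey band in both conditions, and H19 does so in paused cells.

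Levels are compared between genes per kb of exon, as means over both genotypes. H19 stood at 6076 counts per kb in control and 7243 in paused cells, and Igf2bp1 at 4088 and 4107. The place of H19 rests on the genotype in which it is higher: read as wild type with 4 wild-type and 8 knockout libraries averaged, its control level would be 892 per kb, below Igf2bp1, and with the ratio turned it would not. Igf2 (771 and 895), Igf2bp2 (533 and 609), Igf2r (512 and 1202) and Igf2bp3 (372 and 431) lay lower in the pooled means. Irs2 (173 and 411), Igf1r (79.7 and 131), Insr (34.0 and 71.8) and Irs1 (11.2 and 30.2) had smaller pooled means still in control cells. Levels within a genotype can order these genes otherwise. With no spread per library the order has no test.

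The receptors and adaptors all had higher means in the paused table. The ratio of paused to control mean counts was 2.71 for Irs1, 2.38 for Irs2, 2.35 for Igf2r, 2.11 for Insr and 1.64 for Igf1r. H19 (1.19), Igf2 (1.16) and the Igf2bp genes (1.00 to 1.16) were near the median of all shared genes, 1.02. A ratio of at least 1.5 was found for these 5 genes of the 10 and for 18.9% of all genes. The order among the 5 depends on the genotypes pooled, since their levels differ between genotypes, and is not read here. The tables were normalized separately, so no test of the level across them was made.

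**Figure D4:**
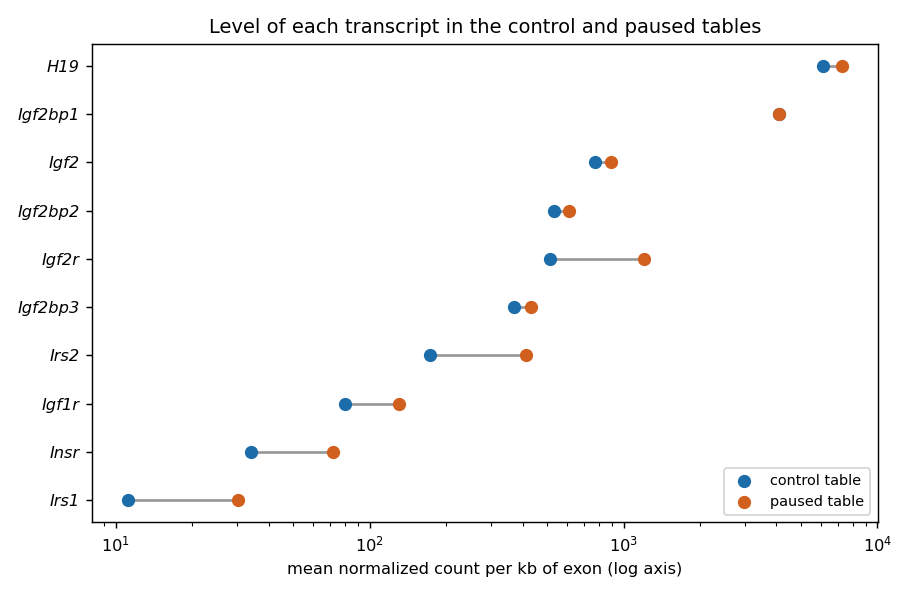
Mean normalized count per kb of exon (logarithmic axis) of each gene in the authors' control (blue) and paused (orange) tables, over both genotypes. The receptors and adaptors shift to the right by 1.64 to 2.71 times, whereas H19, Igf2 and the Igf2bp genes move by at most 1.19 times.

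Other parts of the pathway were taken from lists. Among ligands, binding proteins and their proteases, 2 of 14 measured genes were higher and 5 lower in control cells, and 3 of 13 higher and 4 lower in paused cells. Igf1 was scarce, at means of 29.4 and 18.1 counts, and not called in the authors' deposited tables, so that Igf2 was the abundant ligand. Igfbp3, a carrier protein that binds IGFs outside the cell, fell, with changes of -1.83 (SE 0.29) and -2.20 (SE 0.35), as did Igfbp4 with -0.99 (SE 0.20) and -0.81 (SE 0.23), in the authors' deposited control and paused tables. Igfbp2, another carrier, was not called in control cells (0.09, SE 0.10) and rose by 0.22 (SE 0.09) in paused cells, per the authors' deposited tables. Htra1, a secreted protease that cleaves IGF-binding proteins, rose by 0.76 (SE 0.05) and 0.74 (SE 0.08) in the authors' deposited tables. Pappa (fell by 1.80, SE 0.67, in control cells) and Pappa2 (rose by 1.60, SE 0.45, in paused cells), proteases of the same kind, were called at means of 5.64 and 11.3 counts in the authors' deposited tables.

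Of 18 receptor-proximal adaptors and inhibitors, 2 were higher and 4 lower in control cells, against 3 and 4 in paused cells. Grb10, an imprinted adaptor that restrains the insulin and IGF1 receptors, fell by 0.97 (SE 0.11) and 1.06 (SE 0.16) in the authors' deposited tables. Shc1, which links receptors to the Ras pathway, fell by 0.28 (SE 0.05) and 0.31 (SE 0.06), and the phosphatase Ptpn11 by 0.29 (SE 0.06) and 0.12 (SE 0.05), in the authors' deposited tables. Sh2b2, an adaptor of the insulin receptor, was not called in control cells (0.15, adjusted p 0.339) and rose in paused cells by 0.56 (SE 0.12), per the authors' deposited tables, and the difference was not called (adjusted p 0.230). The list median was -0.01 in both conditions.

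PI3K, AKT and FOXO genes changed in both directions by small amounts, with 6 of 21 higher and 7 lower in control cells, against 6 and 6 in paused cells. Inpp5d, a lipid phosphatase that opposes PI3K, rose by 0.53 (SE 0.07) and 0.38 (SE 0.04), and the AKT phosphatase gene Phlpp2 by 0.43 (SE 0.08) and 0.47 (SE 0.06), in the authors' deposited tables. Foxo3 rose by 0.45 (SE 0.08) and 0.25 (SE 0.05), Foxo6 rose by 0.42 (SE 0.13) and 0.60 (SE 0.09), and Foxo1 fell by 0.36 (SE 0.06) and 0.35 (SE 0.06), in the authors' deposited tables. AKT holds Foxo1 and Foxo3 out of the nucleus.

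**Figure D5:**
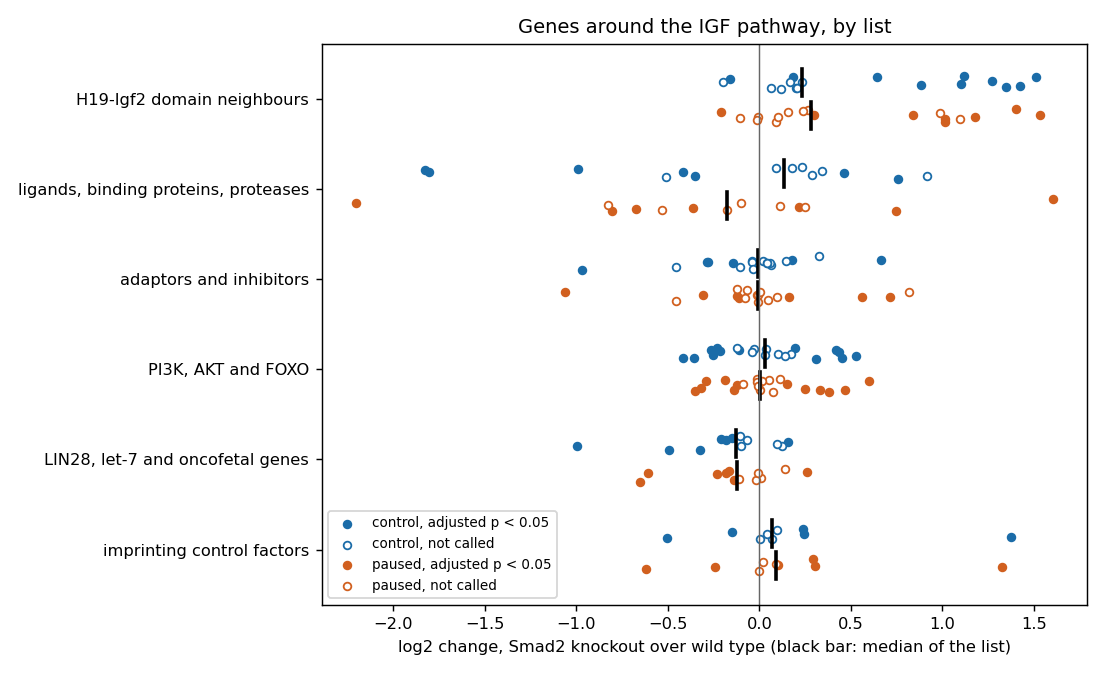
Log2 change (knockout over wild type) of the genes in 6 lists around the IGF pathway, with the 10 chosen genes left out, in control (blue) and paused cells (orange); filled points have an adjusted p under 0.05 and black bars are list medians. Medians lie between -0.18 and 0.28, and single genes such as Igfbp3, Grb10, Lin28b and Ctcfl lie far from them.

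Markers of other cell types moved beside H19 and Igf2, which many extraembryonic and mesenchymal cells express. Of 9 primitive endoderm markers measured, 8 were higher in each condition, with medians of 1.01 and 0.96. Gata6 rose by 1.76 (SE 0.18) and 1.35 (SE 0.17), and Sox17 by 2.19 (SE 0.31) and 1.28 (SE 0.32), in the authors' deposited tables, at means of 41.1 to 115 counts. Of 8 trophoblast markers 2 were higher, Hand1 (1.95, SE 0.18, and 2.69, SE 0.26) and Gata3 (1.54, SE 0.13, and 2.04, SE 0.15), while Krt8 and Krt18 were not called, in the authors' deposited tables. Cdx2 fell, with changes of -0.84 (SE 0.22) and -0.92 (SE 0.35), and Gcm1 was not called in control cells (-0.24, SE 0.16) and fell in paused cells by 0.75 (SE 0.25), per the authors' deposited tables. Fibroblast markers went the other way, with 6 of 11 lower and 1 higher in control cells and 5 of 10 lower and 1 higher in paused cells. Of the mesoderm markers none was higher and 2 of 6 were lower in control cells, and 3 of 6 in paused cells. Neural markers gave 1 higher and 2 lower of 5 in each condition. Pluripotency markers were abundant in both, with 2 of 10 higher and 2 lower. Summed means of the primitive endoderm list were 9086 and 10566 counts, over both genotypes. Most of these counts came from Lama1 (3927 and 4722) and Col4a1 (4130 and 4042), in the authors' deposited control and paused tables. In such bulk samples more cells of a type and more RNA per cell cannot be told apart, and the part of these markers in the changes of H19 and Igf2 was not tested.

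Few genes had changes close in size to those of H19, which lies at the sparse upper end of the rises. Only 1 gene above the abundance minimum rose further in each condition. Among 10483 other genes above the abundance minimum in both tables, ranked by the distance between their control and paused log2 changes and those of H19, only 1 lay within a distance of 1. This was Nxf7, an RNA export factor gene, at 0.92. Stra8, a gene of meiotic entry, followed at 1.16, then Hand1 at 1.47, Esx1, a homeobox gene of the placenta, at 1.49, and Fbp2, a gluconeogenic enzyme gene, at 1.49. With 2 comparisons as the only coordinates, likeness here says that the changes were of similar size.

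Promoter sequence from RefSeq was available for 7 of the 10 genes. The motif CAGAC, a core of Smad binding elements, was searched on both strands in the 250 bases before each start, without regard to overlap with other motifs. It occurred in 6 of 10 windows, for 4 of the 7 genes, against 42.2% of 32851 windows of all genes. Of the 4 Igf2 windows 3 held it. The windows of Igf2 and Irs1 below belong to the protein-coding genes of steepest rise and fall; capitals mark CAGAC or its reverse complement GTCTG, and both genes are on the minus strand.
Igf2 chr7:142657497-142657746: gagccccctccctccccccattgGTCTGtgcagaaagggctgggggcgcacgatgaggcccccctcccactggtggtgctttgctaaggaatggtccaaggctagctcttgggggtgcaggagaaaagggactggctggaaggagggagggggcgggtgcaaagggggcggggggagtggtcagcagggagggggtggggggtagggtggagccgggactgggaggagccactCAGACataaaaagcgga
Irs1 chr1:82291440-82291689: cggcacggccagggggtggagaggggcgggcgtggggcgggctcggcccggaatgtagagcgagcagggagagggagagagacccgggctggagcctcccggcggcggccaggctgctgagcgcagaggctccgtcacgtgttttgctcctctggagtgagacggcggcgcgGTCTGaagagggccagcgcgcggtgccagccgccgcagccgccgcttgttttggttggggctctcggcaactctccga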

How the data were processed

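Per the labels' protocols, directional libraries were made from poly(A) RNA. The submitters' processing notes name FastQC, Trim Galore, HISAT2, featureCounts and DESeq2 and the build mm10. Per the file headers, the deposited columns are a mean of normalized counts over libraries (a signal the authors averaged), a log2 change, its SE on the log2 scale, a statistic (a score) and p-values. The statistic equalled change over SE within rounding, and no deposited adjusted p differed by over 1% from a recomputed Benjamini-Hochberg value. The planned count tests, replicate omissions and replicate block need values per library and were not run.

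The difference between conditions was the paused minus the control change over the root of the summed squared SEs, with a two-sided normal p adjusted over 19134 genes. It was run on simulated data with noise drawn from the deposited SEs, so that run cannot show whether these SEs are of the right size. In the real data the middle spread of the difference statistic was 1.23. Exon lengths and 3′ UTRs come from GENCODE M21. Named genes were the 10 members, up to 4 called genes per list and table by size, and the 5 nearest to H19, and a few others were chosen after their values were seen. Members and lists were chosen with earlier results of these data known. Alternatives were an adjusted p under 0.01, a null of at most 1.2-fold, a statistic scaled to its middle spread, 2 centrings and a minimum mean of 5 ppm (230 counts in control, 221 in paused cells). Equal summed counts assume 4 wild-type and 8 knockout libraries. Python 3.11.15, numpy 2.4.6, scipy 1.17.1, pandas 2.3.3 and matplotlib 3.10.9 were used.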

Additional observations from a re-analysis of the deposited data

Results flagged for a closer look

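The knockout change of Igf2r differed between the conditions by a test of the difference itself. It was 0.25 in control and -0.11 in paused cells, a difference of -0.36 (SE 0.07, adjusted p 4.63e-04). Over the alternatives the difference ranged from -0.38 to -0.36, with an adjusted p of 0.0361 when the statistic was scaled to its middle spread and 1 when tested against a difference of at most 1.2-fold.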

How the results depend on the processing

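Of the 10 genes, 7 were called in control and 9 in paused cells. With 1.2-fold as the null, 3 remained in each (H19, Igf2 and Irs1), and 0 of the differences. This test called 10.6% of all genes in each condition, and 2 genes for the difference. When the statistic was divided by its middle spread (2.76 and 2.80), 1 remained in each, H19, among 1.48% and 2.25% of all genes called. For the difference, 0.183% of genes were then called, 0.533% at an adjusted p under 0.01 and 2.92% with the abundance minimum. The minimum leaves out Irs1 in control cells. Recentring moved all changes by under 0.06. It turned Igf2bp1 in control cells from -0.05 to 0.0063 (equal summed counts) or 0.0045 (median of abundant genes at 0), and the difference for Igf1r to -0.017 or -0.0033 and for H19 to -0.0043. None of these was called, before or after. In paused cells recentring called Igf2bp1 and lost Igf2r, which an adjusted p under 0.01 also lost.

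No paired analysis was possible because the tables hold no value per library. Leaving out replicates and another normalization were not run for the same reason, and depth is unknown.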

Other observations

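Farther along chromosome 7 lies a second imprinted domain. Cdkn1c, a growth-restraining cell cycle inhibitor 883 kb from the H19 start, was not called in control cells (0.12, SE 0.12) and rose in paused cells by 0.84 (SE 0.16) in the authors' deposited tables. The difference was 0.72 (SE 0.20, adjusted p 0.0282). Kcnq1ot1, the antisense RNA that silences Cdkn1c on the paternal copy, rose in control cells by 0.64 (SE 0.22) and was not called in paused cells (0.16, SE 0.12) in the authors' deposited tables. Phlda2, a placental growth gene of the domain, was not called in control cells (0.20, SE 0.09) and rose by 0.30 (SE 0.12) in paused cells of the authors' deposited tables. The differences for Kcnq1ot1 (-0.48, adjusted p 0.392) and Phlda2 (0.09, adjusted p 0.874) were not called. These 3 genes were named after their values were seen.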
